A study of Rattus norvegicus with 30 samples.

Results

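The set described here holds 36 genes of macrophages and other myeloid cells, chosen as rat orthologues of genes that mark these cells or serve their functions, and taken from the table by their Entrez identifiers. All 36 of 36 were found among the 17322 genes of the table. The rule used gene names and no measured value, though earlier results of these data were known when it was set. The members were the CSF1 receptor with its ligand, 7 genes of leucocytes in general, surface and adhesion genes, the 3 C1q chains, scavenger receptors, Fc receptors with their adaptors, the NADPH oxidase, and lysosomal or lectin genes. Of these, 31 were labelled in advance as largely restricted to leucocytes and 5 as also made by other testicular cells. The 5 were Csf1, Cd14, Cyba, Gpnmb and Lgals3. The label was not derived from these libraries. Of the 31, Aif1, Adgre1, Cx3cr1, Mrc1 and Cd163 ran against the others, as given below.

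RNA was sequenced from whole testes of male Wistar Han rats and from testicular explants kept in organotypic culture. The in vivo testes came from animals that were given no treatment, aged in days postpartum (dpp) 8.5 and 14.5, then 24.5 and 30.5, then 36.5 and 53.5. Explants were cut from 8.5 dpp testes, 6 fragments per testis, and cultured at 34 °C at a gas-liquid interface on agarose, in a medium with serum replacement, retinol and vitamin E, for 6 days (D6), 16 days (D16), 22 days (D22) or 28 days (D28). D6 corresponds to 14.5 dpp and D16 to 24.5 dpp, while D22 corresponds to 30.5 dpp and D28 to 36.5 dpp. Every cultured group carried the same supplements, with no unsupplemented culture among the libraries. Each cultured library pooled 12 explants, from at least 3 males, whose central necrotic area had been cut away before RNA extraction, so the myeloid cells of that area were not measured. There were 3 libraries per group, except at 14.5 dpp, where 2 remained because the column of the third, which the submitters call an outlier, is listed at 0 for every gene. In whole tissue, fewer cells of a type and less RNA per cell cannot be told apart.

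Testicular macrophages derive from the embryo and from blood monocytes, sit in the interstitium beside Leydig cells and around the tubules, and depend on signalling through the CSF1 receptor. They clear dying cells and debris through scavenger and Fc receptors, tag them with complement C1q, digest them in lysosomes, and can produce superoxide with the NADPH oxidase. PU.1, the product of Spi1, is the transcription factor that directs this lineage and binds purine-rich sequence.

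Promoters from RefSeq (build GRCr8) were matched for 25 of the 36 members, as windows from 250 bases before to 50 bases after the gene start. The 8 letters AGAGGAAG, a purine-rich box of the kind bound by PU.1, stood on either strand in 9 of the 25 (Adgre1, Cd14, Csf1r, Fcgr3a, Gpnmb, Itgam, Laptm5, Marco and Mrc1) and in 4.38% of 33469 promoters. These letters contain the shorter GAGGAA, which was in 16 of the 25 and in 27.6% of all. They overlap GAGGAAGT, a shifted box also of 8 letters, which was in 2 of the 25 (Cd53 and Fcgr3a) and in 2.42%. TCACGTGA, a box of lysosomal genes, was found in 1 member (Cd84) and in 0.777% of all promoters. AGAGGAAG was picked for display after the scan, and these are matches of letters and carry no test. Of the 9, Marco and Itgam were at or near 0 in these libraries, so the letters were present also in members without signal. The promoters of 3 members with different courses are shown 5′ to 3′ along the gene, with the box in capitals on whichever strand it lies. Gpnmb (chr4:79340878-79341177, plus strand) was far higher in culture than at any age in vivo, Fcgr3a (chr13:85782386-85782685, plus strand) was higher in culture than at 14.5 dpp, and Adgre1 (chr9:2329190-2329489, plus strand) reached its highest levels in late in vivo testes.
Gpnmb: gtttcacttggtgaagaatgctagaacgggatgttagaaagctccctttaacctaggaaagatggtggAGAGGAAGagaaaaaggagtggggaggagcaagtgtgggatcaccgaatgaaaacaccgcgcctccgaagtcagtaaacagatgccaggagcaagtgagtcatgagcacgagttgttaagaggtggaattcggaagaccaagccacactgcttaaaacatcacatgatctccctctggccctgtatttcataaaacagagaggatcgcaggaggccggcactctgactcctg
Fcgr3a: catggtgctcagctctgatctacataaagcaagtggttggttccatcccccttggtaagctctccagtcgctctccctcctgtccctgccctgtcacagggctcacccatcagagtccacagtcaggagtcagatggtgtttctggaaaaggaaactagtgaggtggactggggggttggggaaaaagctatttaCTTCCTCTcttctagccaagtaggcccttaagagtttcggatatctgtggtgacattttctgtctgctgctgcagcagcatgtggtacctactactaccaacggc
Adgre1: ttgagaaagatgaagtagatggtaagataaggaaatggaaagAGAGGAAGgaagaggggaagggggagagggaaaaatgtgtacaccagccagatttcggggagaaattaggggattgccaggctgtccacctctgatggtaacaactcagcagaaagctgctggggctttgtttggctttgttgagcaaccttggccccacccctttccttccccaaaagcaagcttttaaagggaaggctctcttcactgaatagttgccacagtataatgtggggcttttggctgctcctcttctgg

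Levels are given as FPKM, fragments scaled to transcript length and to the size of the library. A member was tested in a comparison when its median reached 0.5 FPKM in at least 1 of the groups compared. One that reached this level in a single group could hardly be called lower in that group. A member was called when the adjusted p of limma was at most 0.05 and the medians differed at least 2 times. The log2 differences are on the log2(FPKM + 1) scale, which understates changes of low genes. Of the 36 members, 32 reached a median of 0.5 FPKM in some group. The other 4 were Itgam, Siglec1, Ms4a7 and Marco. Marco, a scavenger receptor, was listed at 0 in all 29 libraries, and Itgam, the alpha chain of the CD11b integrin, was above 0 in 1 library, at 0.0910 FPKM in D16 replicate 2. Ms4a7 did not exceed 0.237 FPKM. Siglec1, the sialic acid receptor CD169, lay between 0.0115 and 0.108 in vivo and between 0.124 and 0.522 FPKM in culture, without reaching the level for a test. The collagen gene Col1a2 and the Sertoli factor Gata1 were also listed at 0 throughout, so a value of 0 may be a failed estimate.

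The libraries held between 12520 and 13563 genes above 0. No read totals were used here, and the spacing of low values allowed a relative depth to be read for 21 of 28 libraries against the first 8.5 dpp library, between 0.889 and 1.31. Among the cultured libraries, D22 replicate 1 and D28 replicate 1 stood apart: each held the highest value of its group for most members, 28 and 27 of the 32. The mean z-score of the 27 leucocyte-restricted members in use was 1.04 in D22 replicate 1 against 0.662 and 0.443 in its group, and 1.23 in D28 replicate 1 against 0.650 and 0.550. At 30.5 dpp, replicate 3 was highest for 24 of 32 members. Without D28 replicate 1 the count of members called higher at D28 against 14.5 dpp stayed at 17, while the median difference of the 31 tested members moved from 0.996 to 0.813.

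In vivo, most members were at their highest at 8.5 dpp. The in vivo group mean was highest at 8.5 dpp for 21 of the 32 members, a count for which no share over all genes was computed. Every 53.5 dpp library was below every 8.5 dpp library for 23 of 32, against 58.7% of all genes at this level. For 5 of 32 every 53.5 dpp library was above, against 28.9% of all genes. Most genes thus shared the lower direction. From 8.5 to 14.5 dpp, 9 of 26 tested members fell and 0 rose (6.89% of all genes lower and 8.83% higher), with a median difference of -0.46 against 0.07 over all tested genes. Those that fell were Tyrobp, Cyba, Lyz2, Trem2, C1qc, Gpnmb, Cx3cr1, Spi1 and Fcgr3a. From 14.5 to 24.5 dpp, 9 of 25 fell and 2 rose (21.1% and 14.6% of all genes), and from 24.5 to 53.5 dpp 10 of 22 fell and 3 rose (52.8% and 16.7%). In these later steps the median over all tested genes was -0.18 and -0.82, beside -0.58 and -0.50 for the members. From 14.5 to 24.5 dpp the counts were 2 lower and 0 higher without 14.5 dpp replicate 1, 5 lower and 0 higher without replicate 2, and 3 lower and 3 higher with median-of-ratios scaling. From 24.5 to 53.5 dpp the share of members that fell was below that of all genes, and the direction turned to 6 higher and 1 lower with median-of-ratios scaling and 4 higher and 2 lower with quantile normalization (medians 0.35 and 0.098). With FPKM rescaled on the Sertoli marker list both later steps turned, to 9 higher and 0 lower at 24.5 dpp and 12 higher and 0 lower at 53.5 dpp, whereas the 8.5 to 14.5 dpp step kept its direction with 13 lower and 0 higher.

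In culture some myeloid genes were higher than in the 8.5 dpp tissue from which the explants came, and more of them were higher than in the 14.5 dpp testis. At D6, 10 of 31 tested members were higher than at 8.5 dpp and 0 were lower (9.89% and 6.39% of all genes), with a median of 0.46 against 0.05 over all genes. On the Sertoli scaling this became 6 higher and 4 lower, with a median of 0.15. Against 14.5 dpp, the age that 6 days of culture correspond to, 21 of 31 were higher and 0 lower (5.57% and 2.37%), median 0.93 against -0.04. The count was 10 without D6 replicate 1 and 12 without 14.5 dpp replicate 2. At D16, D22 and D28 the counts higher than at 14.5 dpp were 16, 15 and 17 of 31, with 0 lower each time, beside 6.56%, 7.34% and 7.63% of all genes higher and 5.35%, 5.51% and 6.01% lower. Itgb2, Adgre1, Fcgr3a, Fcgr2b, Trem2 and Cybb, called at all 3 times, were under 0.5 FPKM in both 14.5 dpp libraries. They were thus tested only through the cultured groups and could hardly be called lower. Without 14.5 dpp replicate 2 each of the counts at D16, D22 and D28 was 8, and the 9 members that lost their D28 call were Spi1, Itgb2, Cx3cr1, C1qb, C1qc, Fcgr2b, Fcer1g, Trem2 and Cd68. Without replicate 1, Itgb2, C1qb, Fcer1g, Trem2 and Cd68 lost it. The comparisons of D6, D16, D22 and D28 with 14.5 dpp share the same 2 control libraries. From D6 to D28, 1 of 31 members rose and 0 fell (2.51% and 2.19%), and that member was Lcp1. At an unadjusted p under 0.05 from limma, 18 members were lower and 0 higher at 14.5 dpp than at 8.5 dpp (22.1% and 30.2% of all genes), and 3 were lower at D6 than at 8.5 dpp (23.8%). At that p, 0 were lower at D6, D16, D22 or D28 than at 14.5 dpp (17.6%, 24.5%, 25.8% and 28.2%), and 0 were lower at D28 than at D6 (16.1%).

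Against testes of the same age the differences were wider. Of the tested members, 25 of 31 were higher and 1 lower at D16 against 24.5 dpp (25.3% and 18.3% of all genes), 26 of 32 higher and 4 lower at D22 against 30.5 dpp (42.1% and 22.9%), and 26 of 31 higher and 3 lower at D28 against 36.5 dpp (46.7% and 23.6%). The members' medians were 1.10, 1.295 and 1.69, beside 0.12, 0.51 and 0.65 over all genes. On the Sertoli scaling these counts became 6 higher and 5 lower, 4 higher and 16 lower, and 5 higher and 11 lower, and the median over all genes moved by -1.65, -2.55 and -2.74. With that scaling 16, 14, 13 and 17 members were called higher than at 14.5 dpp at D6, D16, D22 and D28, and 0 lower.

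**Figure D1:**
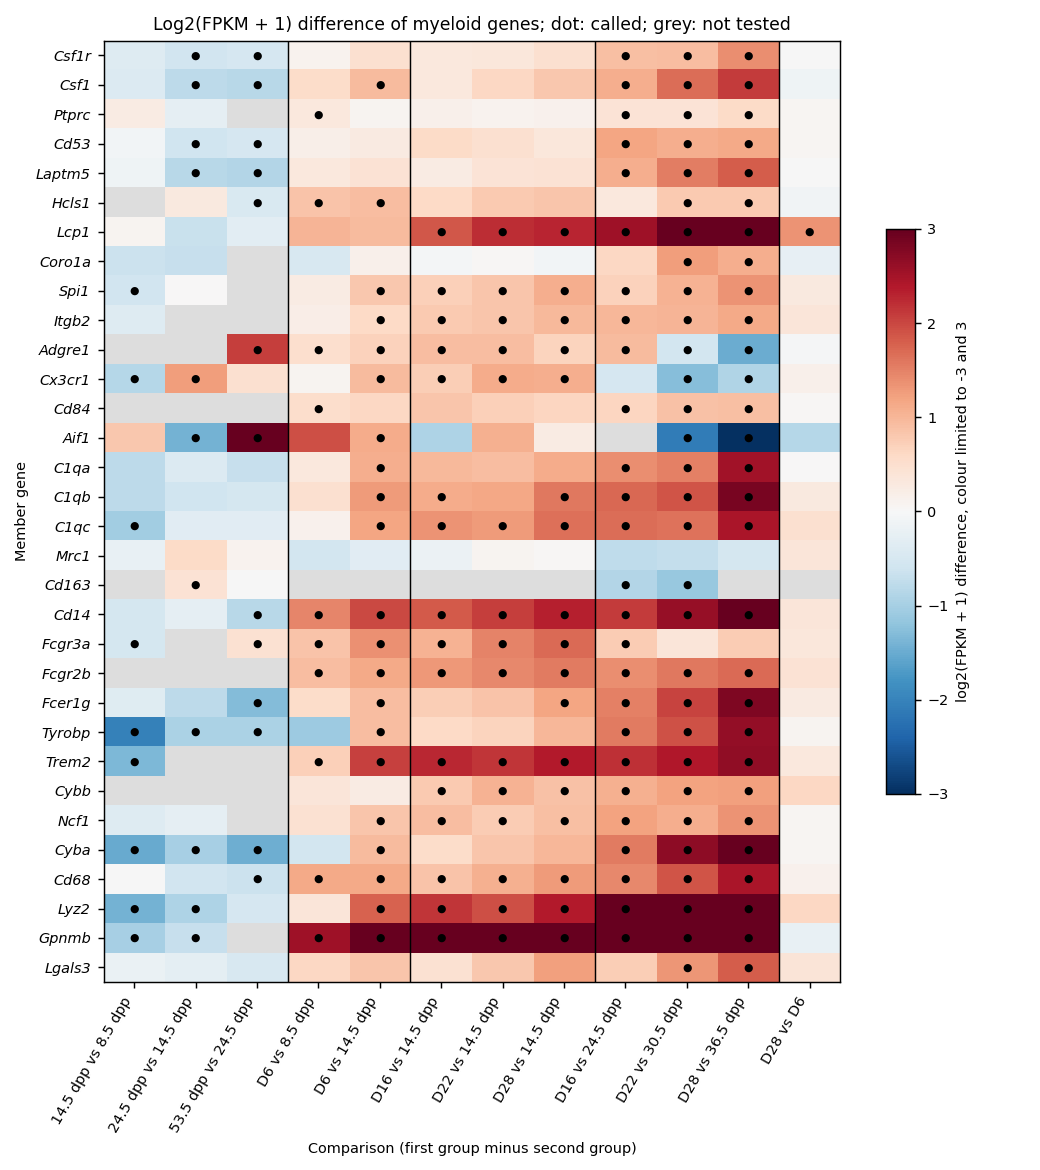
Differences on the log2(FPKM + 1) scale of the 32 members that reached 0.5 FPKM (rows) in 12 comparisons (columns), red where the first group was higher and blue where the second was. Black dots mark calls and grey cells were not tested. The 4 columns of cultured groups against 14.5 dpp hold no lower call, and the age-matched columns on the right hold lower calls for Adgre1, Cx3cr1, Aif1 and Cd163. Cd163 was not tested in the 4 columns against 14.5 dpp.

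Across libraries, every cultured library lay above every in vivo library for 9 of the 32 members (Cd14, Cd68, Fcer1g, Fcgr2b, Gpnmb, Itgb2, Lcp1, Ncf1 and Trem2), against 4.97% of all genes. Of 30 members tested in all 4 age-matched comparisons, 16 were called higher in each, against 4.06% of the 10874 genes so tested. They were C1qa, C1qb, C1qc, Cd14, Cd68, Csf1, Cyba, Fcer1g, Fcgr2b, Gpnmb, Itgb2, Lyz2, Ncf1, Spi1, Trem2 and Tyrobp.

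**Figure D2:**
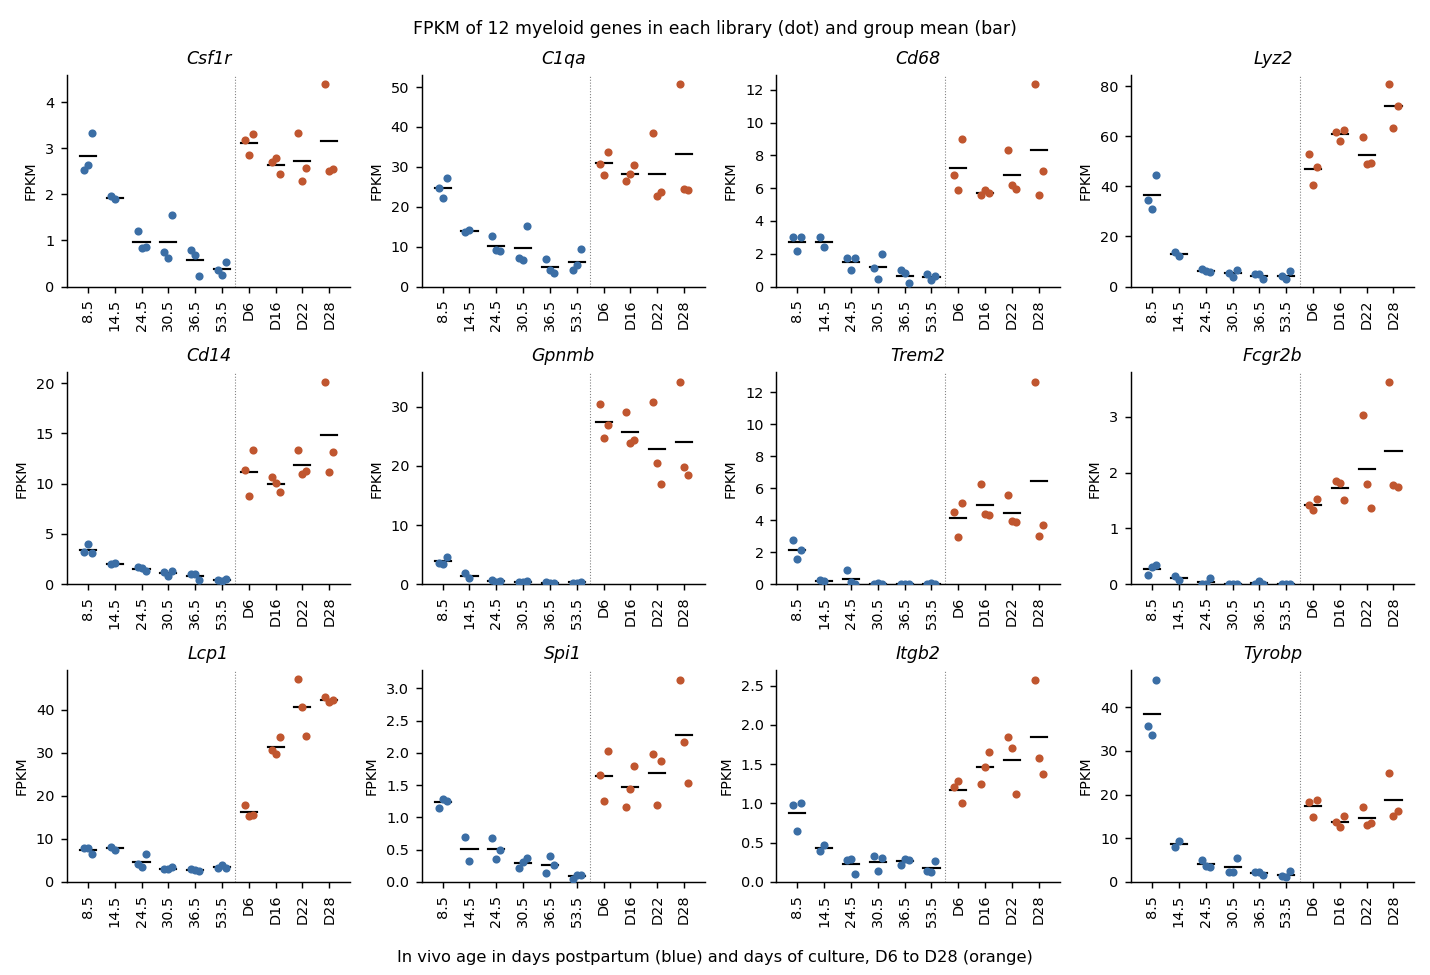
FPKM of 12 members in each library (dots, blue in vivo and orange in culture) by group, with the group mean as a bar and a vertical axis that starts at 0. Gpnmb, Cd14, Cd68, Trem2, Fcgr2b, Itgb2 and Lcp1 were higher in all 12 cultured libraries than in all 17 in vivo libraries, Tyrobp was highest at 8.5 dpp, and D28 replicate 1 is the high dot of several panels.

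Both genes of the CSF1 axis lay above their 14.5 dpp values in every cultured library. Csf1r (Entrez 307403), the receptor on which macrophages depend, measured 2.53, 2.62 and 3.33 FPKM at 8.5 dpp, 1.96 and 1.89 at 14.5 dpp and 0.363, 0.240 and 0.537 at 53.5 dpp. It measured 3.18, 2.85 and 3.32 FPKM at D6, 2.70, 2.79 and 2.43 at D16, 3.32, 2.29 and 2.58 at D22 and 4.39, 2.51 and 2.55 at D28. All 4 culture times overlapped 8.5 dpp, and no comparison with 14.5 dpp passed both criteria (D28: 0.48 ± 0.19 SE, limma adjusted p = 0.0644). Against 36.5 dpp Csf1r was higher by 1.40 ± 0.22 (adjusted p = 0.000536), on the per-RNA scale only, since with Sertoli scaling the difference was -0.53. Csf1 (78965), the ligand, also made by Sertoli, stromal and endothelial cells, measured 5.18, 5.46 and 5.06 FPKM at 8.5 dpp, 4.04 and 3.38 at 14.5 dpp, 7.96, 7.09 and 9.42 at D6, 4.95, 4.60 and 4.87 at D16, 6.97, 5.87 and 5.73 at D22 and 9.54, 6.23 and 6.41 at D28. The D16 libraries lay below all of 8.5 dpp and those of the other culture times above. It was called higher at D6 than at 14.5 dpp (0.96 ± 0.16, limma adjusted p = 0.0155) but not at D16 to D28.

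The 7 genes shared by leucocytes did not move as a block. Spi1 (366126), which encodes PU.1, measured 0.695 and 0.331 FPKM at 14.5 dpp, 1.65, 1.26 and 2.03 at D6 and 3.13, 2.16 and 1.54 at D28, with no overlap between 14.5 dpp and either culture time. It was higher at D28 by 1.10 ± 0.22 (limma adjusted p = 0.00355) and was called at all 4 culture times, though the D28 call was lost without 14.5 dpp replicate 2. Lcp1 (306071), the actin-bundling protein L-plastin of leucocytes, followed a course of its own. It measured 8.14 and 7.51 FPKM at 14.5 dpp, 17.8, 15.2 and 15.5 at D6, 30.6, 29.7 and 33.7 at D16, 47.0, 40.6 and 34.0 at D22 and 43.0, 41.7 and 42.3 at D28. From 14.5 dpp through D6 and D16 to D22 the groups did not overlap, D28 overlapped D22, and D28 replicate 1 did not stand out. Lcp1 was the only member called at D28 against D6, higher by 1.34 ± 0.10 (limma adjusted p = 0.00149).

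Ptprc (24699), the pan-leucocyte phosphatase CD45, was low, at 0.514 and 0.709 FPKM at 14.5 dpp and 0.749, 0.742 and 0.794 at D28. That difference was 0.13 ± 0.12 (limma adjusted p = 0.398), and Ptprc was called higher at D6 against 8.5 dpp but at no culture time against 14.5 dpp, and the first call was lost in 4 of 6 fits without a library. Cd53 (24251), a tetraspanin, Laptm5 (89783), a lysosomal membrane protein of blood cells, and Coro1a (155151), a coronin of the leucocyte cytoskeleton, were called in none of the 4 comparisons with 14.5 dpp. Coro1a measured 0.877 and 2.11 FPKM at 14.5 dpp and 1.75, 0.880 and 1.26 at D28, with full overlap, and a D28 difference of -0.09 ± 0.23. Hcls1 (288077), a cortactin-like adaptor, was called higher at D6 against both 8.5 and 14.5 dpp.

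Among the surface and adhesion genes, Itgb2 (309684), the common beta chain of the leucocyte integrins, measured 0.390 and 0.464 FPKM at 14.5 dpp and 2.58, 1.58 and 1.37 at D28, higher by 0.97 ± 0.18 (limma adjusted p = 0.00267), a call lost when either 14.5 dpp library was left out. All 12 cultured libraries exceeded all in vivo libraries. Cd84 (501872), a SLAM-family receptor, was listed at 0 in 1 of the 2 libraries at 14.5 dpp and measured 1.06, 1.05 and 0.564 FPKM at D28. Its D28 difference of 0.66 ± 0.25 was not called (limma adjusted p = 0.0560).

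A few members ran against the rest in vivo, with higher means in older testes. Aif1 (29427), the calcium-binding protein IBA1 used to stain macrophages, was listed at 0, 0 and 7.30 FPKM at 8.5 dpp, measured 11.4, 67.9 and 37.9 at 30.5 dpp, 89.8, 111 and 102 at 36.5 dpp and 240, 209 and 191 at 53.5 dpp. Its groups from 24.5 to 53.5 dpp did not overlap, and it was higher at 53.5 than at 24.5 dpp by 7.32 ± 0.33 (limma adjusted p = 2e-06). In culture Aif1 lay between 0 and 9.68 FPKM, and at D28 it measured 9.68 and 6.19 FPKM and was listed at 0 in replicate 3. Against 36.5 dpp the difference was -4.58 ± 0.80 (limma adjusted p = 0.00104).

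Adgre1 (316137), which encodes the macrophage antigen F4/80, measured between 0.0579 and 0.306 FPKM in all libraries from 8.5 to 24.5 dpp, 3.85, 3.67 and 4.25 at 36.5 dpp and 2.96, 3.43 and 4.25 at 53.5 dpp. In culture it measured 0.837, 0.864 and 0.668 FPKM at D6 and 0.590, 0.946 and 0.697 at D28, above all libraries up to 24.5 dpp and below all from 30.5 dpp on. It was higher at D28 than at 14.5 dpp by 0.66 ± 0.11 (limma adjusted p = 0.00161) and lower than at 36.5 dpp, with a difference of -1.50 ± 0.11 (limma adjusted p = 9.96e-06). Cx3cr1 (171056), the fractalkine receptor of monocytes and resident macrophages, fell from 2.09, 2.16 and 1.79 FPKM at 8.5 dpp to 0.953 and 0.404 at 14.5 dpp. It measured 8.12, 8.61 and 6.32 FPKM at 30.5 dpp, the highest group, and 3.55, 2.03 and 2.13 at D28. It too was higher at D28 than at 14.5 dpp (1.08 ± 0.23, limma adjusted p = 0.00490) and lower than at 36.5 dpp (-0.91 ± 0.20, adjusted p = 0.00358). The first call was lost without 14.5 dpp replicate 2 and the second without D28 replicate 2 or 3.

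Markers of haploid germ cells appeared over the same ages. Tnp1, a transition protein of spermatids, averaged 0 FPKM at 24.5 dpp, 222 at 30.5 dpp, 2482 at 36.5 dpp and 9208 at 53.5 dpp, and 0 at D28, and Prm1, a protamine, averaged 63.1, 838 and 4881 FPKM from 30.5 to 53.5 dpp and was listed at 0 in all cultured libraries. Over those 3 ages Aif1 averaged 39.1, 101 and 213 FPKM, in the order of both markers, whereas Adgre1 averaged 2.15, 3.92 and 3.55 and Cx3cr1 averaged 7.68, 5.68 and 4.55. Their part in the levels of Aif1, Adgre1 and Cx3cr1 was not tested.

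**Figure D3:**
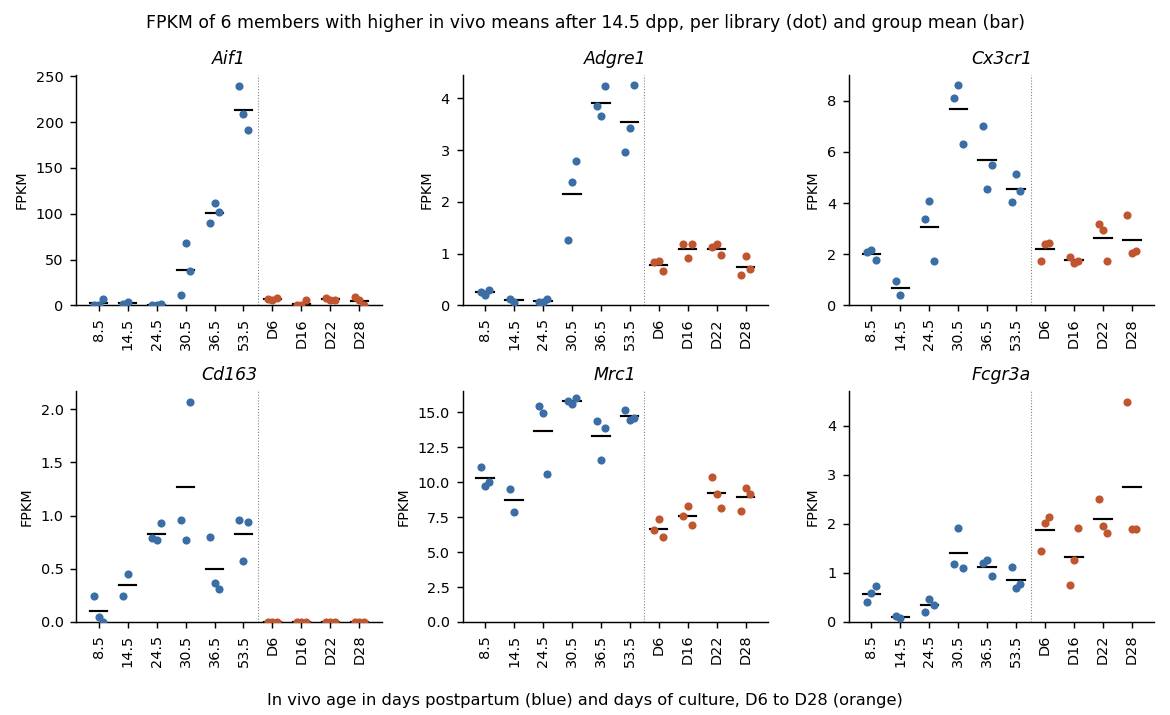
FPKM in each library (dots, blue in vivo and orange in culture) and group means (bars) of 6 members with higher in vivo means after 14.5 dpp, with axes that start at 0. Aif1 reached 191 to 240 FPKM at 53.5 dpp and did not exceed 9.68 in culture, and Cd163 is at 0 in all 12 cultured libraries.

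Of the scavenger and pattern receptors, Cd163 and Mrc1 were called higher in culture in no comparison, whereas Cd14 was, as given below. This course was not shared by all scavenger receptors. In the wider list described below, Msr1, named after its values were seen, measured 0.280 and 0.274 FPKM at 14.5 dpp and 2.17, 1.02 and 1.53 at D28. Cd163 (312701), the haptoglobin-haemoglobin receptor, was above 0 in 16 of 17 in vivo libraries and listed at 0 in all 12 cultured libraries. At 8.5 dpp, when the explants were cut, it measured 0.248, 0.0497 and 0 FPKM, and at 14.5 dpp 0.242 and 0.455, so it was low in the starting tissue too. At 24.5 dpp it measured 0.787, 0.769 and 0.927 FPKM and at 30.5 dpp 0.959, 0.769 and 2.07, and no in vivo library from 14.5 dpp on overlapped the cultured ones. Cd163 was called lower at D16 against 24.5 dpp (-0.87 ± 0.08, limma adjusted p = 0.00012) and at D22 against 30.5 dpp (-1.14 ± 0.20, adjusted p = 0.00134), and no fold is given against a value of 0. Mrc1 (291327), the mannose receptor CD206, was among the more abundant in vivo, with 9.54 and 7.90 FPKM at 14.5 dpp, 15.8, 15.6 and 16.0 at 30.5 dpp and 15.2, 14.4 and 14.6 at 53.5 dpp. It measured 6.59, 7.36 and 6.06 FPKM at D6 and 7.95, 9.62 and 9.19 at D28. All D6 libraries were below all in vivo libraries, the D28 libraries overlapped those at 14.5 dpp, and Mrc1 was called in none of the 12 comparisons. Its difference was -0.56 ± 0.10 at D6 against 8.5 dpp (limma adjusted p = 0.00328) and -0.52 ± 0.12 at D28 against 36.5 dpp (adjusted p = 0.00492), short of the ratio of 2.

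Cd14 (60350), the lipopolysaccharide co-receptor of monocytes, labelled as also made by other testicular cells, lay with the strongest rises. It measured 3.16, 3.95 and 3.07 FPKM at 8.5 dpp, 1.98 and 2.12 at 14.5 dpp, 11.4, 8.82 and 13.3 at D6 and 20.1, 11.2 and 13.1 at D28. No cultured library overlapped an in vivo library, and Cd14 rose by 1.46 ± 0.15 at D6 against 8.5 dpp (limma adjusted p = 0.000388) and was higher by 2.34 ± 0.20 at D28 against 14.5 dpp (adjusted p = 4.49e-05).

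The C1q chains, made by macrophages as the recognition unit of the classical complement pathway, kept together. C1qa (298566) measured 24.7, 22.3 and 27.2 FPKM at 8.5 dpp, 13.6 and 14.2 at 14.5 dpp, 30.8, 27.9 and 33.8 at D6 and 50.8, 24.4 and 24.2 at D28. C1qb (29687) measured 7.89 and 6.37 FPKM at 14.5 dpp and 35.8, 17.5 and 19.6 at D28, and C1qc (362634) 9.23 and 6.70 at 14.5 dpp and 39.8, 21.3 and 23.2 at D28. All 3 chains were above their 14.5 dpp values in every cultured library, and D28 replicate 1 was highest for each. At D28 against 14.5 dpp C1qb was higher by 1.57 ± 0.33 and C1qc by 1.66 ± 0.30 (limma adjusted p = 0.00430 and 0.00195), calls that were lost without 14.5 dpp replicate 2, while C1qa, at 1.11 ± 0.31, had medians 1.76 times apart and was not called. Against 8.5 dpp, none of the 3 was called at D6, and without D28 replicate 1 the D28 differences were 0.77, 1.27 and 1.39 for C1qa, C1qb and C1qc.

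Of the Fc receptors, Fcgr2b (289211), the inhibitory receptor, was low at every age in vivo. It measured 0.151 and 0.0682 FPKM at 14.5 dpp, did not exceed 0.107 from 24.5 dpp on, and measured 1.43, 1.33 and 1.52 at D6 and 3.62, 1.77 and 1.75 at D28. No cultured library overlapped an in vivo one, and it was higher by 0.93 ± 0.09 at D6 against 8.5 dpp (limma adjusted p = 0.000269) and by 1.56 ± 0.26 at D28 against 14.5 dpp (adjusted p = 0.00129), the latter call being lost without 14.5 dpp replicate 2. Fcgr3a (304966), a low-affinity activating receptor, measured 0.120 and 0.0801 FPKM at 14.5 dpp and 4.49, 1.90 and 1.90 at D28, and it was also called higher at 53.5 than at 24.5 dpp (0.47 ± 0.14, limma adjusted p = 0.0141). At 30.5 dpp it measured 1.18, 1.92 and 1.10 FPKM, which overlapped D28. Unlike Fcgr2b, it was not called at D22 against 30.5 dpp or at D28 against 36.5 dpp. Its assignment is uncertain, since near-identical Fc receptor genes can share reads, and the gene now named Fcgr2a, which once bore its symbol, averaged no more than 0.0146 FPKM in any group.

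The signalling partners of these receptors behaved differently. Fcer1g (25441), the common gamma chain, measured 8.23 and 7.01 FPKM at 14.5 dpp, 15.9, 12.4 and 18.0 at D6 and 27.2, 14.4 and 16.4 at D28, above every in vivo library. Tyrobp (361537), the adaptor DAP12, was instead highest at 8.5 dpp, with 35.7, 33.7 and 46.3 FPKM, against 8.03 and 9.35 at 14.5 dpp, 18.3, 14.9 and 18.8 at D6 and 25.0, 15.03 and 16.2 at D28. All 12 cultured libraries lay between those of 8.5 and 14.5 dpp, without overlap. Tyrobp fell from 8.5 to 14.5 dpp by 2.02 (difference -2.02 ± 0.17, limma adjusted p = 0.00358) and at D6 differed from 8.5 dpp by -1.10 ± 0.15 (adjusted p = 0.00103), short of the ratio of 2. Trem2 (301227), the lipid receptor that signals through DAP12, measured 2.76, 1.59 and 2.11 FPKM at 8.5 dpp, 0.274 and 0.189 at 14.5 dpp, and was listed at 0 in 8 of the 12 libraries from 24.5 dpp on. It measured 4.48, 2.93 and 5.09 FPKM at D6 and 12.6, 3.00 and 3.70 at D28, above every in vivo library. The D28 difference from 14.5 dpp was 2.37 ± 0.43 (limma adjusted p = 0.00221), and 1.82 without D28 replicate 1, and the call was lost when either 14.5 dpp library was left out.

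The NADPH oxidase is a membrane pair of Cybb and Cyba completed by cytosolic subunits such as Ncf1. Cybb (66021), the catalytic gp91phox, measured 0.306 and 0.239 FPKM at 14.5 dpp, 0.702, 1.05 and 0 at D6 and 1.37, 1.67 and 1.03 at D28. It was not called at D6, where 1 library was at 0, and was called from D16 on, with a D28 difference of 0.88 ± 0.14 (limma adjusted p = 0.00101). Ncf1 (114553), the p47phox organiser, measured 0.621 and 0.596 FPKM at 14.5 dpp and 2.27, 2.08 and 1.71 at D28, above every in vivo library (0.90 ± 0.10, limma adjusted p = 0.000167). Cyba (79129), p22phox, which is also present outside leucocytes, followed Tyrobp: it measured 26.2, 33.5 and 37.2 FPKM at 8.5 dpp, 11.4 and 9.88 at 14.5 dpp and 33.7, 15.7 and 20.3 at D28. Its D28 difference from 14.5 dpp, 0.99 ± 0.27, had medians 1.90 times apart and was not called.

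Gpnmb and Lyz2, of the lysosomal group, had the 2 largest log2(FPKM + 1) differences of the set at D28 against 14.5 dpp. Gpnmb, like Cd14, was among the members labelled as also made by other testicular cells. Trem2 at 2.37 and Cd14 at 2.34 were close to the 2.38 of Lyz2. That scale understates changes of low genes, so the order is not one of ratios. Gpnmb (113955), a lysosome-associated glycoprotein of phagocytes that take up debris, measured 3.57, 3.40 and 4.62 FPKM at 8.5 dpp and 1.90 and 1.001 at 14.5 dpp, and no more than 0.656 from 24.5 dpp on. It measured 30.5, 24.7 and 26.9 FPKM at D6, 29.1, 23.9 and 24.3 at D16, 30.9, 20.6 and 16.9 at D22 and 34.1, 19.7 and 18.4 at D28. All 12 cultured libraries lay above all in vivo ones. Gpnmb rose by 2.55 ± 0.13 at D6 against 8.5 dpp (limma adjusted p = 2.47e-05) and was higher by 3.33 ± 0.30 at D28 against 14.5 dpp (adjusted p = 5.59e-05). Lyz2 (25211), the lysozyme of macrophages, measured 34.5, 30.9 and 44.7 FPKM at 8.5 dpp, 13.6 and 12.4 at 14.5 dpp, 52.8, 40.4 and 47.7 at D6 and 80.8, 63.3 and 72.3 at D28. D6 overlapped 8.5 dpp, D28 lay above all in vivo libraries, and the D28 difference from 14.5 dpp was 2.38 ± 0.13 (limma adjusted p = 6.24e-06). Lyz2 has a close lysozyme paralogue, Lyc2, and reads shared between them could be split. Lyc2 averaged no more than 0.0432 FPKM in any group.

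Cd68 (287435), the macrosialin used as a macrophage marker, measured 3.00, 2.16 and 3.00 FPKM at 8.5 dpp, 3.00 and 2.42 at 14.5 dpp, 6.79, 5.89 and 9.01 at D6 and 12.3, 5.58 and 7.03 at D28. Unlike Lyz2 and Gpnmb it did not fall between 8.5 and 14.5 dpp by the test, with a difference of -0.0007 ± 0.15. It rose at D6 against 8.5 dpp by 1.14 ± 0.16 (limma adjusted p = 0.00146) and was called at all 4 culture times against 14.5 dpp, but at D28 not when either 14.5 dpp library was left out. Lgals3 (83781), the lectin galectin-3, present in many cell types, measured 31.6 and 30.4 FPKM at 14.5 dpp and 131, 53.5 and 56.9 at D28. Its D28 difference of 1.23 ± 0.32 was not called and was 0.81 without D28 replicate 1.

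**Figure D4:**
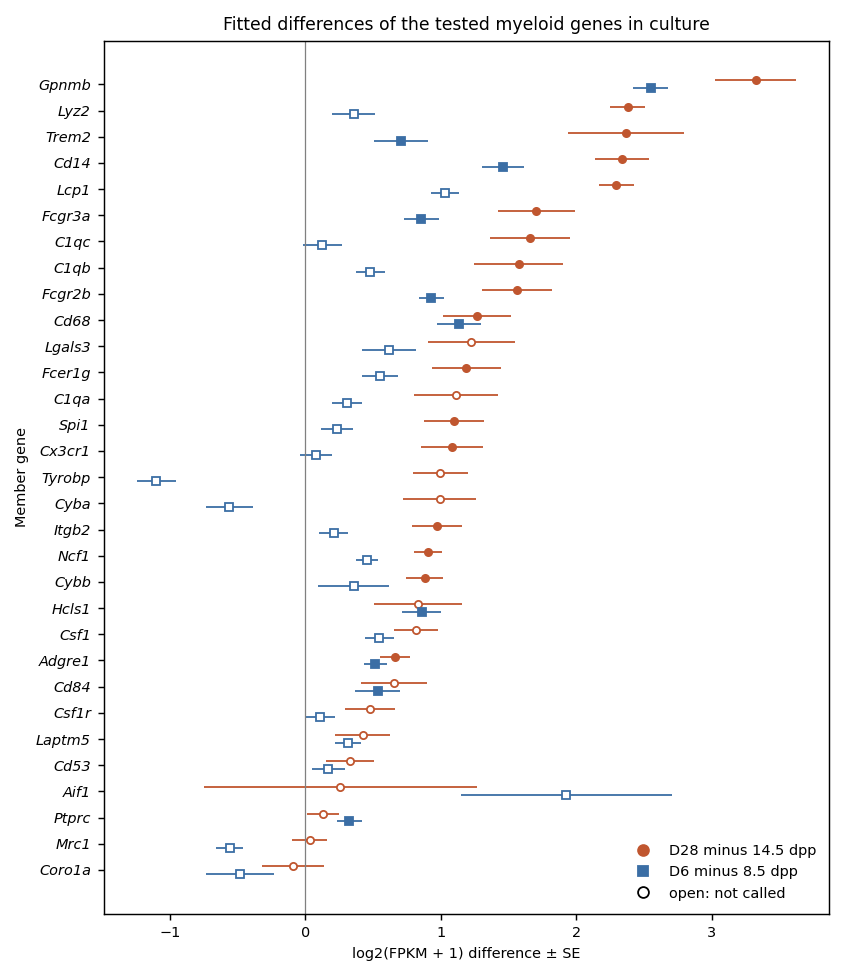
Differences on the log2(FPKM + 1) scale with their SE for the 31 members tested at D28 against 14.5 dpp (orange circles) and at D6 against 8.5 dpp (blue squares), filled where called. Gpnmb is highest in both, Tyrobp and Cyba are below 0 at D6 against 8.5 dpp, and Coro1a, Mrc1 and Ptprc lie near 0 at D28.

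A wider list of 59 measured genes of myeloid signalling, chemokines, transcription factors and effector functions was read beside the members. At D28 against 14.5 dpp, 16 of 41 tested were higher and 2 lower, median 0.47. The largest rises were in genes of chemokines and their receptors, which endothelial and other cells make too. Ccl2, the monocyte chemoattractant, measured 0.405 and 0.283 FPKM at 14.5 dpp and 31.0, 12.6 and 24.0 at D28, and already 42.6, 29.5 and 20.8 at D6, against 1.10, 1.16 and 1.298 at 8.5 dpp. Its D28 difference was 4.04 ± 0.44 (limma adjusted p = 0.000146). Cxcr4, the CXCL12 receptor, measured 10.1 and 8.36 FPKM at 14.5 dpp and 82.9, 44.3 and 55.0 at D28 (2.55 ± 0.26, limma adjusted p = 9.84e-05). Cx3cl1, the ligand of Cx3cr1, measured 12.3 and 6.61 FPKM at 14.5 dpp and 58.3, 47.3 and 45.8 at D28 (2.35 ± 0.20, limma adjusted p = 4.5e-05). For each of these 3 genes no D28 library overlapped 14.5 dpp.

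The 2 called lower than at 14.5 dpp were Ccr1, a chemokine receptor, and Ikzf1, the lymphoid and myeloid factor Ikaros. Ccr1 measured 1.04, 0.728 and 0.833 FPKM at 8.5 dpp, 0.890 and 1.34 at 14.5 dpp and 0.201, 0.205 and 0.195 at D28. Ikzf1 measured 0.481, 0.450 and 0.492 FPKM at 8.5 dpp, 2.26 and 2.84 at 14.5 dpp and 1.203, 0.940 and 1.63 at D28. All D28 libraries of Ikzf1 were thus above those of 8.5 dpp, the age at which the explants were cut. The D28 differences of Ccr1 and Ikzf1 from 14.5 dpp were -0.81 ± 0.11 and -0.66 ± 0.17 (limma adjusted p = 0.000369 and 0.0109). The cytokine genes Tnf, Csf2 and Il10 were listed at 0 in all libraries. Il6 was listed at 0 in all 17 in vivo libraries and lay between 0.217 and 1.14 FPKM in 11 of the 12 cultured ones, with D28 replicate 3 at 0, and it was called higher at D6 than at 14.5 dpp (0.84 ± 0.17, limma adjusted p = 0.0298) and not at D16, D22 or D28. Il1b did not exceed 0.823 FPKM in any library.

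Markers of neutrophils and mast cells were low, while those of T cells varied. Of 7 neutrophil markers 1 at most passed the level for a test in any of these comparisons, their summed level did not exceed 0.985 FPKM in any library, and S100a8 was listed at 0 throughout. The 7 mast cell markers summed to between 0.133 and 2.33 FPKM. The 12 T and NK cell markers summed to 6.46 to 7.01 FPKM at 8.5 dpp, 14.9 to 23.3 at 14.5 dpp, 33.2 to 36.5 at D6 and 19.0 to 21.5 at D28. Cd8a made up most of the D6 sum, at 24.2 FPKM on average against 1.03 at 8.5 dpp, and Cd4 averaged 2.499 FPKM at 14.5 dpp and 6.13 at D28. The T cell receptor chain Cd3d was listed at 0 in 28 of the 29 libraries, all cultured ones among them, and Cd3e averaged between 0.793 and 1.09 FPKM in culture. At D28 against 14.5 dpp, 1 of 9 tested T and NK cell genes was higher (Cd4) and 3 lower (Nkg7, Cd247 and Cd2), and limma called 0 of 1 tested B cell gene and 0 of 2 dendritic cell genes (at an unadjusted p under 0.05, 1 B cell gene was lower and 0 dendritic cell genes differed). In rats both Cd4 and Cd8a can also be carried by macrophages, and their part here was not tested.

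Other testicular cells changed with culture too. The Leydig list had 5 of 6 tested genes lower and 0 higher at D28 against 14.5 dpp, median -2.21, and the peritubular myoid list 4 of 5 lower, median -1.66. The Sertoli list had 0 of 9 called by limma in that comparison, median 0.14, where an unadjusted p under 0.05 gave 1 higher and 3 lower, and the fibroblast list 2 of 5 higher, median 0.13. The endothelial list had 2 of 6 higher and 1 lower, median 0.40, and its Pecam1 averaged 10.3 FPKM at 14.5 dpp and 23.6 at D28. Against 36.5 dpp, all 9 tested Sertoli genes and all 5 tested fibroblast genes were higher at D28, with medians of 3.11 and 3.71, above the 1.69 of the myeloid genes, and 7 of 8 germ cell genes were lower.

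**Figure D5:**
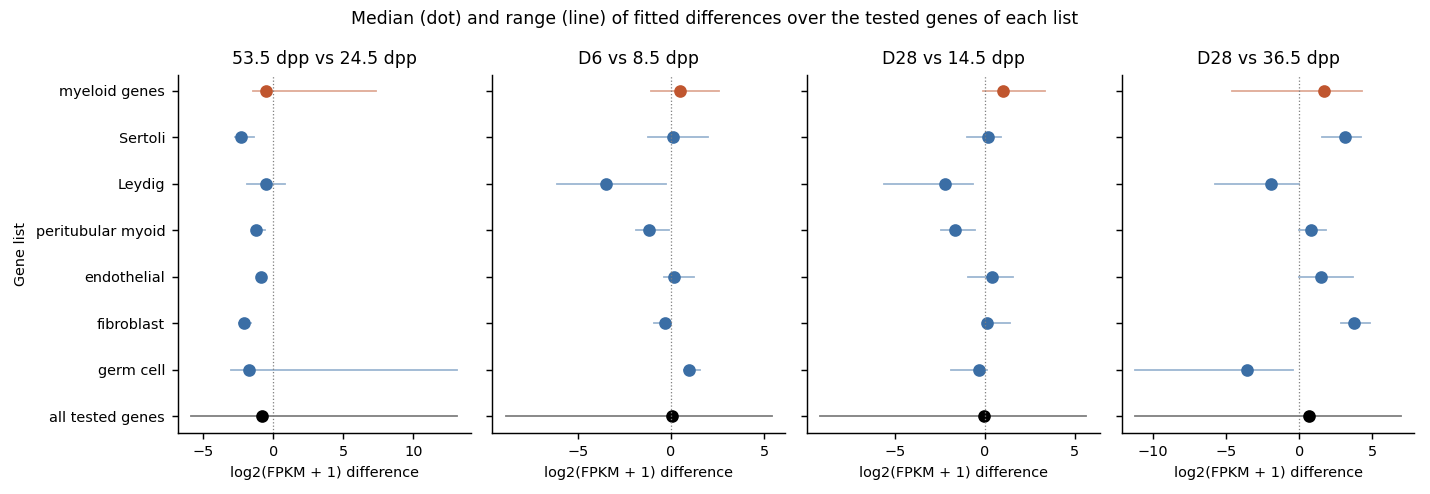
Median (dot) and range (line) of log2(FPKM + 1) differences over the tested genes of 8 lists in 4 comparisons, the myeloid genes in orange and all tested genes in black; the horizontal scale differs between panels. At D28 against 14.5 dpp the myeloid median is 0.996 and that of all genes -0.08, and at D28 against 36.5 dpp the Sertoli and fibroblast medians exceed the myeloid one.

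The genes most like the set in their course over the 29 libraries were found by Pearson r with the mean z-score of the 27 leucocyte-restricted members in use, among 12730 other genes. The 10 highest, at r between 0.967 and 0.983, were C5ar1, Notch4, Gja4, Sat1, G0s2, Depp1, Cyth4, Slfn2, Nrros and Kdr. C5ar1, the receptor of complement C5a on myeloid cells, averaged 0.748 FPKM at 14.5 dpp and 2.88 at D28, while Notch4, Gja4 and Kdr are best known from endothelium. Among the members themselves r ran from 0.973 for Cd14 to -0.770 for Cd163, with Mrc1, Aif1, Cx3cr1 and Adgre1 also negative. All points share the contrast between cultured and uncultured tissue, so these values describe a common course and nothing finer.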

How the data were processed

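Poly(A) RNA of 29 libraries was analysed from a deposited table of FPKM values per gene. Per the labels and methods, reads of 50 bp were mapped by the authors with STAR 2.5.2a against rat build rn6, and FPKM came from StringTie 1.3.3 and Ballgown. FPKM is relative to each library's total, so a gene can fall because others rise, and read counts were not used. Values were tested as log2(FPKM + 1) with limma 3.58.1 in R 4.3.3, with Benjamini-Hochberg adjustment over all tested genes. A gene was tested when its median reached 0.5 FPKM in a compared group and called at an adjusted p of at most 0.05 and a ratio of medians of at least 2. D16, D22 and D28 against 14.5 dpp were called by the F test of 1 fit of 4 groups, as in the study, and other comparisons were fits of 2 groups. Standard errors and p-values printed for single genes are those of the contrast. The p-values measure the spread between these libraries. The functions were tested on simulated data.

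Symbols came from RefSeq for 17172 of 17322 identifiers. All 36 members are named, with counts for the lists of other cells and the 10 genes most like the set. Of the wider myeloid list, the 3 largest higher and lower calls at D28 against 14.5 dpp are named (only 2 were lower). Single genes of other lists were named after their values were seen. The members and lists were chosen with earlier results of these data known. Replicate numbers did not pair the libraries (correlations of deviations between -0.131 and 0.218). Python 3.11.15 was used for tables and figures. Alternatives were another pseudocount, filters, scalings, empirical Bayes settings, fits of all groups, adjusted p alone, a replicate block and leaving out each library.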

Additional observations from a re-analysis of the deposited data

Results flagged for a closer look

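The difference between culture and the testis of the same age was itself compared between late and early culture, as D28 minus 36.5 dpp less D6 minus 14.5 dpp, by the interaction contrast of limma on the log2(FPKM + 1) scale. It passed at an adjusted p of 0.05 for 21 of 31 tested members, beside 76.5% of all 12482 tested genes. The share of members that passed was below that of all genes, so passing did not mark the set. Shares of all genes by direction were not computed, so the counts by direction that follow describe the members only. The excess of culture over testis was larger late for 18 members. The late excess less the early one was 2.55 for Lcp1, 2.12 for Cyba, 2.04 for Lyz2, 1.89 for Fcer1g, 1.72 for Tyrobp, 1.58 for C1qb, 1.42 for C1qa, 1.37 for Laptm5 and 1.31 for Cd68. It was 1.29 for C1qc, 1.15 for Csf1, 1.11 for Cd14, 0.97 for Cybb, 0.90 for Csf1r, 0.87 for Cd53, 0.54 for Itgb2, 0.51 for Ncf1 and 0.49 for Ptprc. The excess was smaller late for 3 members, with late less early values of -5.70 for Aif1, -2.20 for Adgre1 and -1.85 for Cx3cr1. Each was higher in culture at D6 and lower at D28. The 10 members that did not pass included Trem2, Gpnmb, Spi1, Fcgr2b and Mrc1. The late contrast turns on the Sertoli scaling for many members, and the interaction was not recomputed on it.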

How the results depend on the processing

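The signs and calls of the members depended mainly on scaling and on the 2 libraries of the 14.5 dpp group. With FPKM scaled on the Sertoli list, the counts that moved were 9 higher and 0 lower in 24.5 dpp against 14.5 dpp, 12 higher and 0 lower in 53.5 dpp against 24.5 dpp, 6 higher and 4 lower in D6 against 8.5 dpp, 6 higher and 5 lower in D16 against 24.5 dpp, 4 higher and 16 lower in D22 against 30.5 dpp and 5 higher and 11 lower in D28 against 36.5 dpp. With median-of-ratios scaling they were 3 lower in 24.5 dpp against 14.5 dpp, 6 higher and 1 lower in 53.5 dpp against 24.5 dpp, 1 lower in D6 against 8.5 dpp and 2 lower in D16 against 24.5 dpp. With quantile normalization they were 2 lower in 53.5 dpp against 24.5 dpp and 1 lower in D6 against 8.5 dpp. With a filter at 1 FPKM they were 1 higher in 24.5 dpp against 14.5 dpp and 0 lower in D16 against 24.5 dpp. Without a filter, which let Cd163 into the tests against 14.5 dpp, they were 1 lower in D16 against 14.5 dpp, 1 lower in D22 against 14.5 dpp and 1 lower in D28 against 14.5 dpp. By adjusted p alone they were 15 lower in 14.5 dpp against 8.5 dpp, 17 higher and 3 lower in D6 against 8.5 dpp, 2 lower in D16 against 24.5 dpp and 2 higher in D28 against D6. A replicate block, although the numbers did not pair the libraries, moved the counts of members called higher to 1 in 14.5 dpp against 8.5 dpp, 1 in 24.5 dpp against 14.5 dpp and 8 in D6 against 14.5 dpp, and moved no other count by more than 1.5 times. Leaving out each library in turn gave ranges of 0 to 1 higher in 14.5 dpp against 8.5 dpp, 0 to 1 higher in 24.5 dpp against 14.5 dpp, 2 to 9 lower in 24.5 dpp against 14.5 dpp, 0 to 1 lower in D6 against 8.5 dpp, 10 to 18 higher in D6 against 14.5 dpp, 8 to 17 higher in D16 against 14.5 dpp, 8 to 18 higher in D22 against 14.5 dpp, 8 to 21 higher in D28 against 14.5 dpp and 1 to 3 lower in D16 against 24.5 dpp, and a 14.5 dpp library left alone was assumed to vary like the other groups. The cause of these movements was not tested.

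Differences on the log2(FPKM + 1) scale that changed sign with the Sertoli scaling were, at D28 against 36.5 dpp, -0.53 for Csf1r, -0.38 for Csf1, -0.40 for Ptprc, -0.79 for Cd53, -0.85 for Laptm5, -0.84 for Hcls1, -0.18 for Spi1, -0.31 for Itgb2, -0.69 for C1qa, -0.18 for C1qb, -0.72 for C1qc, -1.43 for Fcgr3a, -0.10 for Fcer1g, -0.33 for Tyrobp and -1.60 for Lgals3. At D6 against 8.5 dpp they were -0.24 for Csf1r, -0.14 for Cd53, -0.086 for Laptm5, -0.036 for Spi1, -0.021 for Itgb2, -0.23 for Cx3cr1, -0.13 for C1qa, -0.31 for C1qc and -0.093 for Lyz2, and at D28 against 14.5 dpp -0.0097 for Mrc1. Quantile normalization gave -0.051 for Cx3cr1 at D6 against 8.5 dpp, and a pseudocount of 0.1 gave -0.52 for Aif1 at D28 against 14.5 dpp. Without single libraries the difference ranged from -0.41 to 1.2998 for Aif1 at D28 against 14.5 dpp, from -0.0066 to 0.25 for C1qc at D6 against 8.5 dpp, from -0.46 to 0.27 for Coro1a at D28 against 14.5 dpp and from -0.091 to 0.15 for Mrc1 at D28 against 14.5 dpp. Of 1667 values of single members over all alternatives, 1535 kept their direction and side of the threshold, 49 gained a call, 48 lost one and 35 changed sign. At D28 against 14.5 dpp, 9 members (C1qb, C1qc, Cd68, Cx3cr1, Fcer1g, Fcgr2b, Itgb2, Spi1 and Trem2) lost their call in at least 1 fit without a library. Only 2 or 3 libraries per group and the unknown read depth limit the precision, most of all for members below 1 FPKM.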

Other observations

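Further genes of the wider myeloid list, chosen here after their values were seen, were called higher at D28 than at 14.5 dpp by limma on the log2(FPKM + 1) scale. Apoe, the lipid carrier that macrophages and other cells secrete, had a median of 602 FPKM at D28 and 189 at 14.5 dpp (difference 1.88 ± 0.28 SE, adjusted p = 0.000855), and Hmox1, which breaks down haem, medians of 99.5 and 36.0006 (1.41 ± 0.17, adjusted p = 0.000278). The lysosomal protease gene Ctss had medians of 12.8 and 4.49 FPKM (1.32 ± 0.12, adjusted p = 6.89e-05), and Cd74, the invariant chain of antigen presentation, 17.3 and 5.43 (1.60 ± 0.37, adjusted p = 0.00694). Fcgr1a, the high-affinity Fc receptor, was higher by 1.58 ± 0.22 and Csf2rb, the shared beta chain of the GM-CSF receptor, by 1.90 ± 0.11 (adjusted p = 0.000543 and 7.66e-06). Sirpa, the inhibitory receptor for CD47, had medians of 16.2 FPKM at D28 and 29.8 at 14.5 dpp and was not called (-0.87 ± 0.15, adjusted p = 0.00179, short of the ratio of 2).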
